A study of Mus musculus with 4 samples.

Results

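The genes described here encode 10 secreted glycoproteins of the extracellular matrix that are not collagens: the tenascins Tnc and Tnr, fibronectin (Fn1), the fibrillins Fbn1 and Fbn2, the microfibril-associated proteins Mfap2 and Mfap4, the matricellular proteins Sparc and Thbs1, and Crispld2. They were picked by symbol, with earlier results of these data known. Each matched 1 of the 26815 entries of a table that compares 2 conditions. Of the 10 genes, 9 were tested by the authors and Mfap4 was not.

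All libraries were made from poly(A) RNA of purchased neural stem cells, taken from the cortex of CD-1 mouse embryos at E14.5 and grown with EGF and bFGF on plates coated with poly-L-ornithine and laminin, itself a matrix protein. Every culture, controls included, had received a lentivirus and puromycin at 0.5 µg/mL. In 2 libraries the lentivirus carried a scrambled shRNA (SHC002) and in 2 others a single shRNA against Foxp1 (pLKO.1_sh_ex15), so an effect of that one hairpin beyond Foxp1 cannot be told apart from an effect of Foxp1. The duplicates came from different passages, and nothing in the labels says that they came from different embryos.

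The comparison sets a condition coded q2 against one coded q1, and neither labels nor headers say which code is which shRNA. Directions below are therefore q2 relative to q1. Foxp1, the targeted forkhead transcription factor, had a log2 fold change of -2.03 in the authors' deposited table, so its level in q2 was 4.09-fold lower (q = 0.00162 from Cuffdiff). The table holds no value per library, and its values per coded condition were not used, so levels are not given here. Overlap between replicates and sequencing depth are unknown. RNA from cultures also does not tell fewer cells that make a transcript from less of it per cell.

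Matrix glycoproteins of this kind are modular proteins that cells secrete and then bind again through integrins, syndecans and other receptors. Fibronectin and the fibrillins assemble into fibres and microfibrils that carry other proteins, including latent TGF-beta. Matricellular proteins such as tenascin-C, SPARC and thrombospondin-1 are not mainly structural and adjust adhesion and growth factor signals. In the embryonic cortex, tenascin-C is made by radial glia and is part of the stem cell niche, while tenascin-R is better known from oligodendrocytes and perineuronal nets.

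In q2, 8 of the 9 tested genes were called higher (Cuffdiff q under 0.05), none lower, and Tnr, the 1 gene with a lower value at an unadjusted p under 0.05, was not called. The same rule called 5.06% of the 12159 tested genes with a single symbol higher and 3.90% lower. Since the genes were chosen with earlier results of these data known, this comparison of shares is a description and not a test. The 8 called genes all had the smallest q the table holds, 0.00162, which 449 of those tested genes share, so q does not rank them. Among the 8 tested genes with a finite value the median log2 fold change was 1.45, beside -0.04 over all tested genes, and it was 1.51 with Mfap2, whose fold change is infinite, ranked highest. The errors given below are the deposited log2 fold change divided by the deposited statistic, and intervals are 95% intervals built from them. The errors ran from 0.31 to 0.39 for these genes, beside a 5th percentile of 0.31 and a median of 0.35 over all tested genes, and they reflect the authors' variance model, not a spread measured here.

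**Figure D1:**
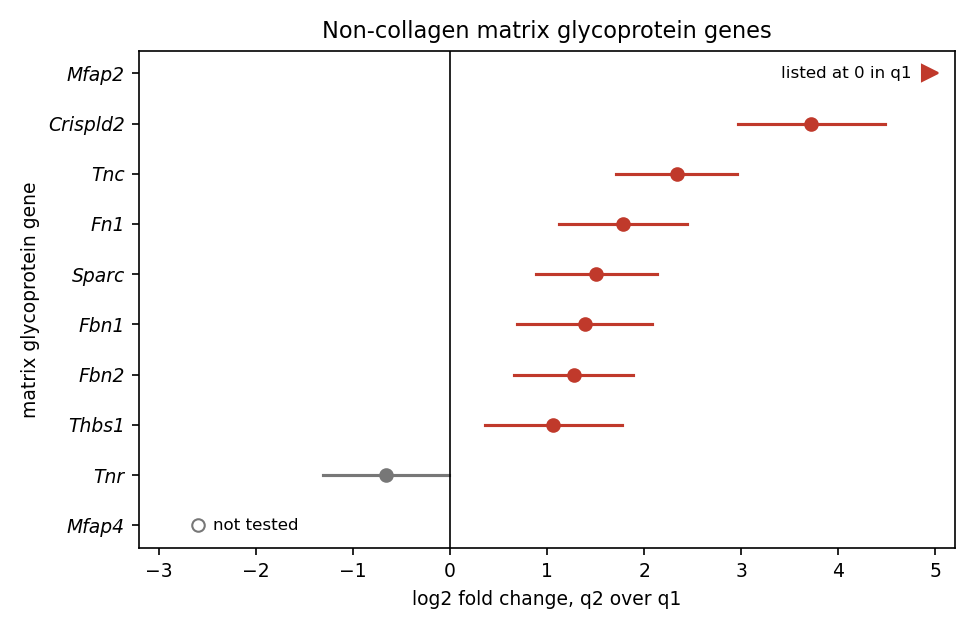
The 10 matrix glycoprotein genes (y axis) by their log2 fold change, q2 against q1, as the authors' deposited table gives it (x axis), with 95% intervals from the error implied by the statistic as bars. Red points were called higher and grey ones not called. The 7 red genes with a finite value run from 1.06 for Thbs1 to 3.72 for Crispld2, the arrow marks Mfap2, which has no finite value, and the open circle marks Mfap4, which was not tested and has no error.

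The 2 tenascins had values of opposite sign. Tnc (GRCm38 chromosome 4, 63959785 to 64047015, minus strand) encodes tenascin-C, a hexameric glycoprotein that loosens cell adhesion. Its longest transcript in GENCODE M21 has 26 exons and 7106 bases. The log2 fold change of Tnc in the authors' deposited table was 2.34 ± 0.32 (implied error), or 5.05-fold, with an interval from 3.27- to 7.78-fold. Its statistic of 7.33 in the authors' deposited table was rank 22 by size among the 12090 tested genes with a finite value. Tnr (chromosome 1, 159523769 to 159931728, plus strand) encodes tenascin-R, the family member of the more mature nervous system, over 23 exons. For Tnr the authors' deposited table held -0.66 ± 0.33 (implied error), a level 1.58-fold lower in q2, with p = 0.0047 and q = 0.0578 from Cuffdiff, so it missed the threshold narrowly. For its level in q2 relative to q1 the interval ran from 0.404- to 0.994-fold, close to no change at its upper end. Between the paralogues the log2 fold changes differed by 2.99 ± 0.46 (combined error), which is 6.51 combined errors. This difference treats the 2 errors as independent, although both genes were measured in the same libraries.

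Across genes, fold changes rose with the GC content of transcripts (Spearman rho 0.42 over 11562 genes, which are not independent replicates). With that trend removed, Tnr went to -0.77 and was called lower (q = 0.0273), where 3.22% of tested genes were called lower, and Tnc stayed at 2.32. Tnr also passed when the authors' p-values were adjusted over single-symbol genes alone (q = 0.0494). When p was read from a normal distribution Tnr was far from a call (q = 0.455). Nor was it called after centring on the median gene (q = 0.0724) or with the length trend removed (q = 0.0570). The 7 genes called higher with a finite value kept that call with the GC trend removed, at values from 1.10 for Thbs1 to 3.52 for Crispld2. In that setting 505 of 12159 tested genes were called higher. Mfap2, with no finite value, could not be corrected. Transcript GC content was 52.7% for Tnc and 52.2% for Tnr, close to each other and to the median of 50.6% over tested genes. The amount removed was the unsmoothed median of each gene's bin among 50 bins. It was larger for Tnr than for Tnc despite their similar GC content. How far the Tnr call with the trend removed depends on its bin was not tested.

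The sequence just upstream of the annotated start is shown for both tenascin genes, because these paralogues had values of opposite sign, although Tnr was not called. Each window holds the 250 bases before the RefSeq start that coincides with the 5′ end of the authors' locus (RefSeq, GRCm38.p6), 5′ to 3′ on the gene's own strand, at chr4:64047016-64047265 for Tnc and chr1:159523519-159523768 for Tnr. Capitals mark matches to TGGGAA (an RBPJ motif, the DNA-binding partner of Notch) and GGGCGG (an Sp1 motif), on either strand.

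Tnc: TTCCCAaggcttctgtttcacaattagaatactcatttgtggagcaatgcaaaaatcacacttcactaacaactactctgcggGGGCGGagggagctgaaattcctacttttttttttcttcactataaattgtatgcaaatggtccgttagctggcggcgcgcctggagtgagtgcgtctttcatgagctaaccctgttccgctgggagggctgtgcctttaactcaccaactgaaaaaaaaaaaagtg
Tnr: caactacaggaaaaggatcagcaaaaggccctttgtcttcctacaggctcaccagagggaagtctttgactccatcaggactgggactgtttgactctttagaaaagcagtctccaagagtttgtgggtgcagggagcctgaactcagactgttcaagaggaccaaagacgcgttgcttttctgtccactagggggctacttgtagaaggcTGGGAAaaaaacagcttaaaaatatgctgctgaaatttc

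Both windows hold 1 TGGGAA match, from position -250 to -245 on the opposite strand in Tnc and from -39 to -34 on the gene's strand in Tnr, with positions counted back from the start. That motif occurs in 21.6% of 32851 windows of the same length. Only the Tnc window of the pair holds GGGCGG, which 32.7% of windows hold. The Tnc window has 8 CpG dinucleotides and the Tnr window 2, beside a median of 6. Neither has a match on either strand to a forkhead motif, searched as TGTTTAC, as the variant TGTTTAT and as the variant TATTTAC, found in 9.45% of windows. The same holds for TGANTCA (AP-1, 6.75% of windows) and GGAATG (TEAD, 12.6%).

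Fibronectin was also called higher. Fn1 (chromosome 1, 71585473 to 71653234, minus strand) encodes the dimeric glycoprotein that links integrins to collagen and heparan sulfate and is assembled by cells into fibrils. Its longest annotated transcript has 46 exons. In the authors' deposited table Fn1 was at 1.78 ± 0.34 (implied error), a 3.44-fold difference with an interval from 2.17- to 5.44-fold. By size its statistic of 5.28 in the authors' deposited table was rank 62. Fn1 is widely used as a marker of mesenchymal cells as well as being part of the neural stem cell matrix.

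Among the microfibril genes, both fibrillins rose. Fibrillins are large glycoproteins with many calcium-binding EGF-like modules that form the backbone of microfibrils. Fbn1 (chromosome 2, 125300594 to 125506438) and Fbn2 (chromosome 18, 58008623 to 58209926) each have 65 exons in their longest transcript, and Fbn2 is the form better known from embryonic tissue. Fbn1 stood at 1.39 ± 0.35 (implied error) in the authors' deposited table, or 2.61-fold. For Fbn2 the value was 1.27 ± 0.31 (implied error) in the authors' deposited table, or 2.42-fold. The paralogues differed by 0.11 ± 0.47 (combined error), with an interval from -0.81 to 1.04, so a difference of up to about a log2 of 1 either way is not resolved.

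Fbn2 had a further reading in the table. An entry without a symbol lies at 58210103 to 58210439, 176 bases past the authors' Fbn2 locus, and all 337 bases of it fall inside exon 1 of the transcript Fbn2-201 in GENCODE M21 (58209552 to 58210487). This 5′ piece was itself called higher in the authors' deposited table, at 1.55 ± 0.55 (implied error), or 2.92-fold (Cuffdiff q = 0.0135). Its value and that of the main Fbn2 entry are closer than either error. Both come from the same libraries, and the use of strand in the counting is not given in the sources used here. The entry was looked at after its value had been seen.

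Mfap2 and Mfap4 are small compared with the fibrillins, with longest transcripts of 1073 and 1770 bases. Mfap2 (chromosome 4, 141010424 to 141015984), whose product MAGP-1 decorates fibrillin microfibrils and binds growth factors of the TGF-beta family, was listed at 0 in q1 and above 0 in q2. It was called higher with Cuffdiff q = 0.00162 in the authors' deposited table, but with no finite fold change or statistic, so the size of the difference is not known. Of all tested genes, 2 were called with such an infinite value on the higher side and 4 on the lower. Mfap4 (chromosome 11, 61485444 to 61488704), a fibrinogen-like glycoprotein of elastic fibres, was not tested. Its deposited log2 fold change of -2.59 in the authors' deposited table has no statistic and no error, and no direction is read from it. Exon 6 of a Mfap4 transcript in GENCODE M21 also overlaps the locus of Mapk7, a tested kinase gene at 0.35 (q = 0.409) in the authors' deposited table.

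The 2 matricellular genes were both called higher. Sparc (chromosome 11, 55394159 to 55420080, minus strand) encodes a collagen-binding, counter-adhesive protein also known as osteonectin. In the authors' deposited table Sparc had a log2 fold change of 1.51 ± 0.32 (implied error), or 2.84-fold, with an interval from 1.85- to 4.37-fold. Thbs1 (chromosome 2, 118111922 to 118127133, plus strand) encodes thrombospondin-1, an astrocyte-secreted protein in the brain that activates latent TGF-beta and promotes synapse formation. Thbs1 was the lowest of the called genes, at 1.06 ± 0.36 (implied error), or 2.09-fold, in the authors' deposited table. Its statistic of 2.95 in the authors' deposited table stands beside the smallest Cuffdiff p, 5e-05, but when p was read from a normal distribution its q was 0.0837 and the call was lost.

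**Figure D2:**
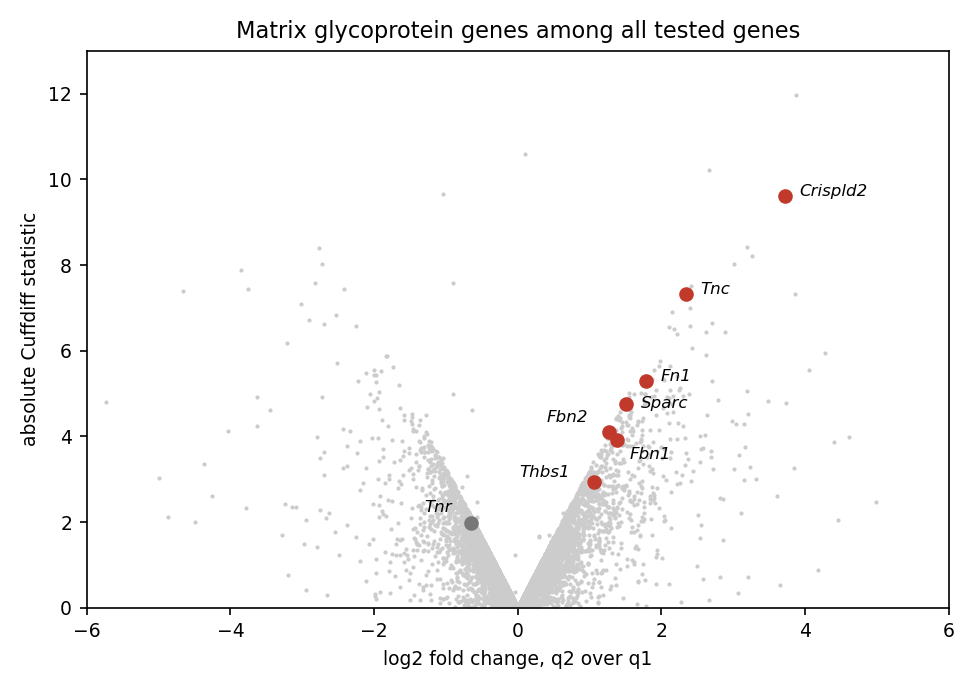
Each grey point is 1 of 12086 tested genes, by log2 fold change, q2 against q1 (x axis), and absolute Cuffdiff statistic (y axis), both from the authors' deposited table; 4 others lie outside the axes. The matrix glycoprotein genes with a finite value are drawn large, red if called higher and grey if not. Crispld2 and Tnc have statistics of 9.61 and 7.33, above nearly all other genes, and Thbs1, at 2.95, is the lowest of the red points.

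Crispld2 showed the largest finite difference of the 10. The gene (chromosome 8, 119992470 to 120052793, plus strand) encodes a secreted protein with a CAP domain and LCCL domains, known from lung and craniofacial development. Crispld2 was at 3.72 ± 0.39 (implied error) in the authors' deposited table, or 13.2-fold, with an interval from 7.80- to 22.4-fold. Its statistic of 9.61 in the authors' deposited table was rank 9 by size among the tested genes. Its transcripts have a median GC content of 55.9%, and with the GC trend removed the value was 3.52. Crispld1, its closest relative, was not tested.

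The 250 bases before the RefSeq start of Crispld2 (GRCm38.p6, chr8:119992188-119992437, plus strand) are shown because this gene differed most. This start lies slightly before the authors' locus. No capitals appear, since none of the motifs searched has a match here on either strand.

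Crispld2: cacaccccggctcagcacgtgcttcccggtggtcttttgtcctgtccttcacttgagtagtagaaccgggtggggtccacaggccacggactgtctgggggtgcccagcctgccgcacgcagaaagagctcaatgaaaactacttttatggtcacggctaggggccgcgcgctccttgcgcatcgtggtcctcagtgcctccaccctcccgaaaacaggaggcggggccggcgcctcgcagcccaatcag

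This window is richer in GC than those of the tenascins, at 63.2% against 44.8% for Tnc and 46.8% for Tnr, and has 18 CpG dinucleotides. RefSeq windows were found for 6 of the 10 genes, 8 windows in all. None of the 8 had a forkhead, AP-1 or CArG box match, TGGGAA occurred in windows of 3 genes, GGGCGG in 3 and GGAATG in Mfap2 alone. Those of Fbn1 and Sparc, like the others not printed, overlap annotated exons. A match or its absence describes these letters only.

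Set in order, the finite values fell from Crispld2 through Tnc, Fn1, Sparc, Fbn1 and Fbn2 to Thbs1 and then Tnr. Crispld2 exceeded Tnc by 1.39 ± 0.50 (combined error), and Thbs1 exceeded Tnr by 1.72 ± 0.49. The 5 steps between Tnc and Thbs1 each had a 95% interval that includes 0, the widest step being 0.55 ± 0.46 between Tnc and Fn1. The order of those neighbours is therefore not resolved.

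The genes next to the matrix glycoprotein genes on the chromosome were called about as often as tested genes in general. The nearest tested genes on each side of the 10 loci number 20, and 1 was called higher and 1 lower, against 5.06% and 3.90% of all tested genes. Atic, an enzyme of purine synthesis 6.07 kb from Fn1, was at 0.75 (q = 0.0149 from Cuffdiff), and Rasgrp1, 769 kb from Thbs1, at -1.47 (q = 0.0453), in the authors' deposited table. The genes flanking Crispld2, Usp10 and Zdhhc7, were at 0.37 and 0.26, and those flanking Mfap2, Atp13a2 and Crocc, at -0.05 and 0.74, in the authors' deposited table, none of them called. The median over the 20 neighbours was 0.24, beside -0.04 over all tested genes. These neighbours were looked at after the genes' own values were known.

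**Figure D3:**
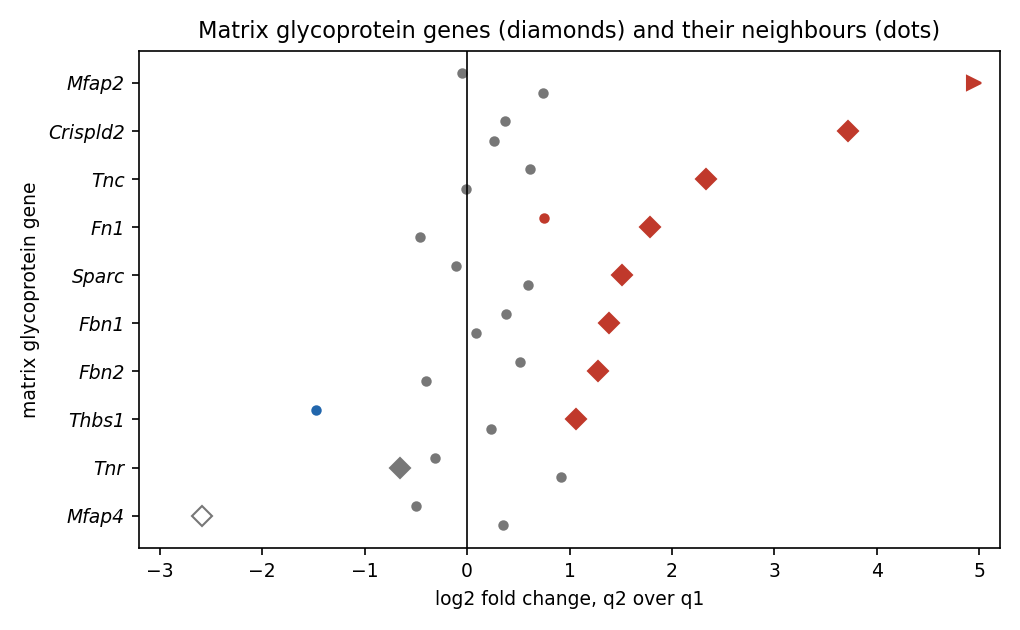
The matrix glycoprotein genes (diamonds, y axis) and the nearest tested gene on each side (dots), by log2 fold change, q2 against q1, as the authors' deposited table gives it (x axis). Red marks genes called higher, blue lower, grey not called, the open diamond the untested Mfap4 and the arrow Mfap2; the 20 dots run from -1.47 to 0.91.

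The wider microfibril and elastic fibre list gave calls in 1 direction. Of 35 listed genes 18 were tested, and 9 were called higher by Cuffdiff and none lower (0 lower also at an unadjusted p under 0.05), beside 5.06% higher over all tested genes. Without Fbn1, Fbn2 and Mfap2 the count was 6 of 15, with a median log2 fold change of 0.68. In the authors' deposited table Fbln2 and Fbln1, fibulins that bridge fibronectin and elastic fibres, were at 3.01 and 1.52. Hmcn1, a giant fibulin-related protein of basement membranes, was at 2.10 and the microfibril glycoprotein gene Emilin1 at 1.45 in the authors' deposited table. The latent TGF-beta binding proteins Ltbp1 and Ltbp4 completed the calls, at 0.93 and 0.83 in the authors' deposited table, and Ltbp4 lost its call with the GC trend removed (q = 0.246). Elastin itself (Eln) was at 0.26 in the authors' deposited table, with q = 0.635 from Cuffdiff, and was not called. Ltbp1, Ltbp4 and Eln were named after their values had been seen.

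Matricellular genes as a list had 13 tested members of 32, with 7 called higher and 1 lower, beside 5.06% and 3.90% of all tested genes. Without Tnc, Tnr, Sparc and Thbs1 the counts were 4 higher and 1 lower of 9. Relatives of Sparc are among them. Sparcl1 (hevin), a relative of Sparc that astrocytes secrete, was at 3.87, and Smoc1, another relative, at -0.79 in the authors' deposited table, with q = 0.00918 from Cuffdiff. Fstl1, a further relative, was called higher at 1.00, and Spock2 was not called at -0.29, in the authors' deposited table. Spp1 (osteopontin) and Ctgf stood at 1.82 and 1.62 in the authors' deposited table, both called higher. Igfbp7, named after its value had been seen, had an implied error of 3.39, so its log2 fold change of 0.81 in the authors' deposited table gives little information.

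Of 33 tested adhesive glycoproteins outside those 2 lists, 10 were called higher and 2 lower, beside 5.06% and 3.90% of all tested genes, or 8 and 2 of 31 without Fn1 and Crispld2. Frem1 and Fras1, partners in a complex that anchors epithelia to the basement membrane, stood at 2.21 and 1.79 in the authors' deposited table. Frem2, of the same list and named with its value known, had the opposite sign. The authors' deposited table gives it a log2 fold change of -0.71, which narrowly missed a lower call (q = 0.0521, Cuffdiff). Egfl7, a secreted protein best known from endothelium, was at 2.05 ± 1.00 (implied error) in the authors' deposited table and lost its call with the GC trend removed (q = 0.104). Called lower were Edil3, an integrin ligand, at -0.93 and Fndc1 at -0.76 in the authors' deposited table, of which Edil3 lost the call with the GC trend removed (q = 0.165).

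**Figure D4:**
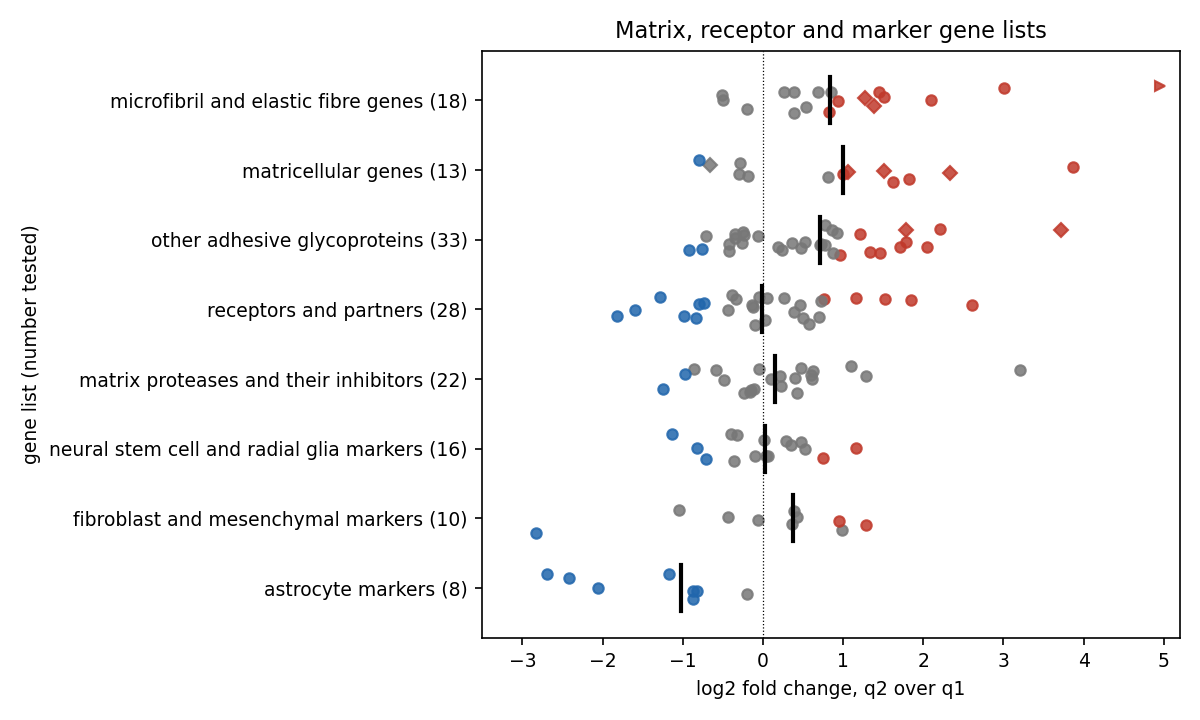
Tested genes of 8 lists (y axis, number tested in parentheses) by log2 fold change, q2 against q1, as the authors' deposited table gives it (x axis). Red marks genes called higher, blue lower and grey not called; diamonds are the matrix glycoprotein genes of this report, the arrow is Mfap2 and black bars are medians, 0.84 for microfibril genes, -0.01 for receptors and partners and -1.02 for astrocyte markers.

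The receptors and partners that bind these glycoproteins were divided. Of 28 tested, 5 were called higher (17.9%) and 7 lower (25.0%), beside 5.06% and 3.90% of all tested genes, with a median log2 fold change of -0.01. Itga4 and Itga5, alpha subunits of fibronectin-binding integrins, stood at 1.53 and 1.16 in the authors' deposited table, both called higher. Itgav, the alpha subunit of further integrins that bind fibronectin, was at -1.82 and Itga9, which with beta 1 binds tenascin-C, at -1.59 in the authors' deposited table, both called lower. Itga8, a further alpha subunit of a fibronectin-binding integrin, was not called, at 0.26 in the authors' deposited table. Itgb1, the beta 1 subunit that can pair with each of these alpha subunits, was at -0.10 in the authors' deposited table, with q = 0.878 from Cuffdiff. Itgb1 was named after its value had been seen. Anxa2, a cell surface ligand of tenascin-C, was at 2.61, and Cd36, a thrombospondin receptor, at 1.85 in the authors' deposited table, both called higher. Cntn1, a neural adhesion molecule that binds tenascin-R, was at -1.28 and the syndecan Sdc2 at -0.99 in the authors' deposited table, both called lower. Ptprz1, a phosphatase receptor of tenascins named after its value had been seen, was at -0.80 in the authors' deposited table, with q = 0.0373 from Cuffdiff, and lost its call with the GC trend removed (q = 0.371).

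Matrix proteases and their inhibitors were counted beside 5.06% of all tested genes called higher and 3.90% lower. None of 22 tested genes was called higher by Cuffdiff and 2 were called lower. At an unadjusted p under 0.05 the counts were 4 and 5. The shares of 5.06% and 3.90% are at q under 0.05, so these unadjusted counts are not to be read against them. The 2 genes called lower were the metalloprotease inhibitor Timp4 at -1.25 and the serine protease Htra1 at -0.97 in the authors' deposited table. The gelatinase Mmp2, named after its value had been seen, was at 1.29 ± 0.65 (implied error) with q = 0.0883 from Cuffdiff, and was not called, in the authors' deposited table.

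Markers of other cell types were read beside these values, with 5.06% of all tested genes called higher and 3.90% lower. Of 18 fibroblast and mesenchymal markers 10 were tested, 2 were called higher and 1 lower: Foxc1 at 1.29, Acta2 at 0.95 and Pdgfra at -2.83 in the authors' deposited table. Among the matrix genes of fibroblasts, Dcn, Lum and Postn were not tested and had a log2 fold change of exactly 0. Col3a1, Col6a1 and Col1a2 were not tested either. In the authors' deposited table Col3a1 was at 2.28, Col6a1 at -0.05 and Col1a2 had an infinite value on the lower side. No direction is read from these untested values. Col1a1 was tested, at 0.43 ± 0.56 (implied error, Cuffdiff q = 0.604) in the authors' deposited table. Of 11 endothelial and mural markers 2 were tested, Kdr at 0.71 ± 0.54 and Cspg4 at -0.27 ± 0.31 (implied errors) in the authors' deposited table. Of 10 microglial markers 2 were tested, P2ry12 at 1.37 ± 2.62 and Cd68 at 0.98 ± 0.94 (implied errors) in the authors' deposited table. Cuffdiff called 0 of these 4, the lowest of their unadjusted p-values being 0.0635, for Kdr. Summed levels of these lists were not used here, and their part in the matrix results was not tested.

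Neural markers moved in several ways, beside 5.06% of all tested genes called higher and 3.90% lower. Of 16 tested stem cell and radial glia markers 2 were called higher and 3 lower, with a median of 0.02. Hopx was at 1.16 and the intermediate filament gene Nes at 0.75, against Fabp7 at -1.13, Hes5 at -0.82 and the cadherin Cdh2 at -0.71 in the authors' deposited table; Nes and Cdh2 lost their calls with the GC trend removed (q = 0.0703 and 0.245). Of the 8 astrocyte markers 7 were called lower by Cuffdiff and none higher (0 higher also at an unadjusted p under 0.05), led by Aqp4 at -2.70, Ndrg2 at -2.42, Gfap at -2.06 and Slc1a2 at -1.17 in the authors' deposited table. Tested neuron markers numbered 6, with Syt1 called higher at 1.48 and Elavl3 lower at -1.26 in the authors' deposited table. Their part in the matrix results was not tested either.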

How the data were processed

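RNA from 4 libraries, 2 per shRNA, was compared by the authors in 1 table, with samples grouped from their titles. Per the submitters' processing notes, the tools were TopHat2 2.0.9, Cufflinks 2.2.1 and a Cuffdiff of unnamed version, on build mm10 (GRCm38). Annotation, filters and strand setting: not given in the sources used here. The deposited log2 fold changes are q2 over q1, the test statistic is the authors' score, and both the p-value and the q-value were deposited as Cuffdiff gave them, per the file headers. Per-condition values (2 columns) were not used, since no label ties them to an shRNA; depth and its precision are unknown.

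Calls are the authors' q under 0.05. Counts at an unadjusted p under 0.05 are given without a share over all tested genes at that threshold. Lists were counted over the 12159 tested genes with 1 symbol that occurs once. The rule named up to 4 called genes per direction of each list, or up to 2 others. Ltbp1, Ltbp4, Eln, Igfbp7, Fstl1, Spock2, Itga8, Itgb1, Ptprz1, Mmp2, Col1a1, Col3a1, Dcn, Lum, Postn, Crispld1 and the neighbouring genes were chosen after their values were seen. Frem2, Col1a2 and Col6a1 were likewise named with their values known. The genes and lists were chosen with earlier results of these data known. Transcript GC content (median) and length (maximum) came from GENCODE M21 by symbol for 95.6% of genes. Trends were removed as medians in 50 bins and the statistic was rescaled. A new p was taken from an isotonic regression of deposited p-values on their statistics, and Benjamini-Hochberg adjustment was applied. The procedure was run on simulated data with a straight-line GC trend and noise smaller than the implied errors. The planted differences were larger than the value of Tnr, so a change as small as that of Tnr was not covered. A planned look at protein sequences was not made. Starts count from 1. Software: matplotlib 3.10.9, numpy 2.4.6, pandas 2.3.3, Python 3.11.15, scikit-learn 1.9.0 and scipy 1.17.1. Alternatives changed the q threshold, a minimum fold, the p-value, the adjustment, centring, GC and length trends and overlapping loci.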

Additional observations from a re-analysis of the deposited data

How the results depend on the processing

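The 8 genes with a finite value kept their direction with centring and with the GC or length trend removed; the other alternatives leave the fold changes as they are. Their median log2 fold change ran from 1.40 to 1.48. The count called lower went from 0 to 1, Tnr, with q under 0.1, with adjustment over single-symbol genes and with the GC trend removed. That count stayed at 0 in the other settings, and the q of Tnr rose to 0.455 when p came from a normal distribution. Thbs1 lost its call when p came from a normal distribution, where Mfap2 has no statistic and drops out by construction; the count called higher stayed within 1.5 times. For the wider lists, 84 of 108 counts stayed within 1.5 times. Over all tested genes, where 615 were called higher and 474 lower, a q under 0.01 gave 358 and 269, a minimum log2 fold change of 1 gave 388 and 228, and p from a normal distribution gave 232 and 152. With that last setting, higher calls fell to 5 for microfibril genes, 4 for matricellular genes, 3 for receptors and 1 for fibroblast markers, and lower calls to 0, 0, 3 and 1 for matricellular genes, adhesive glycoproteins, receptors and proteases. A minimum log2 fold change of 1 left 0, 0, 3 and 1 lower calls in those 4 lists and 1 higher fibroblast call. A q under 0.1 called 788 genes higher and 674 lower over all tested genes. It gave 2 lower matricellular calls and 3 higher and 4 lower protease calls. A q under 0.01 gave 0 lower adhesive calls. Adjustment over single-symbol genes (651 higher and 511 lower over all tested genes) gave 2 lower matricellular calls. Removing the GC trend (505 higher and 391 lower) gave 2 lower matricellular and 1 lower adhesive calls. Removing the length trend (741 higher and 463 lower) gave 3 higher protease calls. Entries with a locus of their own were 9591 genes, 517 called higher and 405 lower. They left 0 lower matricellular, 2 higher receptor and 1 lower protease calls. No paired analysis was possible because the table holds no values per library, and for the same reason leaving out a library, another pseudocount and another low-value filter were not run. Unknown depth limits every statement on untested genes, and Mfap2 has no size.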
